A study of Mus musculus with 15 samples.

Results

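Aminoacyl tRNA synthetases were examined as 36 named genes out of 32657 features in the deposited count files. Rows were taken by gene symbol: 20 cytosolic synthetase genes and 16 mitochondrial ones, whose symbols end in the suffix 2 and of which *Lars2* was kept apart because of its unusually high counts. All 36 had a row in every library, and all 36 passed the filter on low counts in each of 9 comparisons. They were selected on gene symbol, but the family itself was chosen by its measured counts and genotype differences in these same libraries, so the comparisons below describe the genes and do not stand as independent support for their choice.

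A synthetase joins one amino acid to its matching tRNA, and the charged tRNA is what the ribosome reads against the codon. Cytosolic and mitochondrial protein synthesis use separate sets of these enzymes, encoded by separate nuclear genes for most amino acids, while *Gars* and *Kars* supply both compartments. Several cytosolic enzymes sit together in the multisynthetase complex, and many cytosolic synthetase genes are targets of ATF4, the transcription factor of the amino acid response, which is known to bind sites that join a C/EBP and an ATF core.

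The RNA-seq study asked how gene expression in the dentate gyrus (DG) changes when the serotonin receptor 5-HT4R is lost. TRAP pulls down ribosomes that carry EGFP-tagged L10a, so the IP holds ribosome-bound mRNA of the tagged cells and the input holds RNA of the dissected tissue. Ventral (vDG) IP, vDG input and dorsal (dDG) input were each sequenced from 3 WT and 2 cKO pools, giving 15 libraries. Total counts on genes ranged from 19039295 to 30451430.

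WT mice carried Drd3-Cre KI198 and Rosa26-fsTRAP, and cKO mice carried the same alleles together with Htr4-Floxed, so Cre and the EGFP-L10a reporter were present in every group. Mice were adults of 8 to 12 weeks on a C57BL/6J background. KI198Cre is a BAC driver line with Cre expression mostly limited to excitatory neurons of the hippocampus, CA cells included, and the sample records name granule cells and mossy cells as the cell types. Those records also give cortex as the source of the input RNA, while their titles and the study's methods give the DG. Markers of granule cells and mossy cells were present in every group: the summed level of 5 granule cell markers, among them *Prox1*, lay between 961 and 1518 counts per 1000000 (CPM), and that of 5 mossy cell markers between 88.5 and 130 CPM in the vDG and between 30.6 and 35.6 CPM in the dDG. Each library pooled tissue of several mice, 3 per IP and 2 per input in the records, against 1 male and 1 female in the study's methods. Cre removes a single exon of the floxed *Htr4*, and counts over the whole gene cannot show that loss; *Htr4* read between 13.6 and 16.0 CPM in the WT vDG IPs and at 26.7 and 29.8 CPM in the cKO vDG IPs.

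Promoters of the synthetase genes are shown first, since one of them, that of *Aars*, belongs to the gene with the largest change between genotypes. The RefSeq promoter table (GRCm38.p6, the assembly of mm10) held an entry for 27 of the 36 genes, each running from 250 bases before to 50 bases after the start. *Cars*, *Hars*, *Lars*, *Nars*, *Rars*, *Vars*, *Wars*, *Hars2* and *Pars2* had none. The motif TGATGNAA, the core of a joined C/EBP and ATF site, was searched on both strands. It occurred in 5 of 13 cytosolic promoters (38.5%) and in 0 of 14 mitochondrial promoters with *Lars2* included, against 1304 of all 32851 promoters (3.97%). The 5 were *Aars*, *Gars*, *Iars*, *Tars* and *Yars*, all of them on the list of 11 ATF4-induced synthetase genes, of which 8 had a promoter entry. A match is a description of the letters and not proof of a site. In the following 4 sequences, read 5′ to 3′ on the strand of the gene, capitals mark a match; *Aars* held 2, beginning 112 bases before and 9 bases after the start, *Gars* and *Tars* held 1 each, and *Eprs*, an ATF4-induced gene that differed between genotypes, held none.
Aars, chr8:111033592-111033891, plus strand: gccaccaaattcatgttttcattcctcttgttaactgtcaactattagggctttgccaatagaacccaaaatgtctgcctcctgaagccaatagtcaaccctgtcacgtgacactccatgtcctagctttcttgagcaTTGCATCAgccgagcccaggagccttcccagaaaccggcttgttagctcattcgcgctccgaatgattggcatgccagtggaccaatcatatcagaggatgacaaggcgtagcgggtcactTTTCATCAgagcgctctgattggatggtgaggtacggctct
Gars, chr6:55037751-55038050, plus strand: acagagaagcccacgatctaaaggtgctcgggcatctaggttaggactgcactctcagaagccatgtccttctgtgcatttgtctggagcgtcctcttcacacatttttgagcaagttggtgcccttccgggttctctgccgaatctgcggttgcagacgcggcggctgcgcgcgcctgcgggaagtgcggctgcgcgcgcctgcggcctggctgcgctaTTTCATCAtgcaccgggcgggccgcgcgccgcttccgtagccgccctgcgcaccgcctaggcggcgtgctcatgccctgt
Tars, chr15:11399609-11399908, minus strand: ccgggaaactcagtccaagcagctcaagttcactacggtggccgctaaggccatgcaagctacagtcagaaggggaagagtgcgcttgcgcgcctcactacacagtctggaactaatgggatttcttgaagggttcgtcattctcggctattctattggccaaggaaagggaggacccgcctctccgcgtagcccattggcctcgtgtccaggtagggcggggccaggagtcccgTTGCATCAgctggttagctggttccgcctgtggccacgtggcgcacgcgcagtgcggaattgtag
Eprs, chr1:185362794-185363093, plus strand: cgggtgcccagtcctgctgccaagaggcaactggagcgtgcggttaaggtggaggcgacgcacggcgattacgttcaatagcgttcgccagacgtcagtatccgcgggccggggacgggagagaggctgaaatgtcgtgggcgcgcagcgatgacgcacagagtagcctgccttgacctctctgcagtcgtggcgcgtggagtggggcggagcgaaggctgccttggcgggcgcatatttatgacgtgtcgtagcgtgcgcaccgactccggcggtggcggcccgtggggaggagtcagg

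Levels were compared between genes as reads per kilobase of the transcript with the longest coding sequence and per 1000000 counts (RPKM). In WT vDG input the median over the 20 cytosolic genes was between 16.9 and 18.7 RPKM in the 3 libraries, and over the 15 mitochondrial genes without *Lars2* it was between 3.04 and 3.46 RPKM. *Nars*, which charges tRNA with asparagine, was the highest cytosolic gene in every group, at 65.9, 56.6 and 61.1 RPKM in WT vDG input. *Vars*, for valine, was the lowest cytosolic gene in every group, at 1.45, 1.60 and 1.59 RPKM there. The ratio of *Nars* to *Vars* within the cytosolic set was thus larger than that of the medians of the sets.

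*Rars2*, the mitochondrial enzyme for arginine, was the highest mitochondrial gene apart from *Lars2* in every group, at 10.6, 7.91 and 9.27 RPKM in WT vDG input. *Mars2*, for methionine, was the lowest there at 0.607, 0.7002 and 0.925 RPKM, while *Aars2* was lowest in cKO vDG input and *Vars2* in cKO dDG input. The transcript used for *Mars2* is the longest of the 36, at 11294 bases. By mean CPM in WT vDG input *Mars2* (8.40) was not the lowest, with *Aars2* at 4.15 and *Sars2* at 3.44. *Rars2* and *Mars2* did not overlap, whereas neighbours in the order such as *Wars2* (4.64 ± 0.30 RPKM, SD, n = 3), *Fars2* (4.59 ± 0.65) and *Hars2* (4.39 ± 0.67) lay within their spread. Among the 12 pairs of a cytosolic and a mitochondrial gene that share a symbol apart from the suffix, with *Lars* and *Lars2* left out, the cytosolic gene was higher in 11 in each of the 6 groups, with a median ratio between 4.30 and 6.37. *Cars*, for cysteine, was the exception, at 0.46 to 0.80 of *Cars2*. This rests on the transcripts used, of 3222 bases for *Cars* and 1902 for *Cars2*. In WT vDG input *Cars* had the higher mean CPM (8.79 against 6.50). The union of exons is shorter for *Cars* (6583 against 7237 bases), so with that length *Cars* lay above *Cars2* there. With the union of annotated exons as the length, the cytosolic and mitochondrial medians in WT vDG input were 9.07 and 1.67 RPKM, in the same order.

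**Figure D1:**
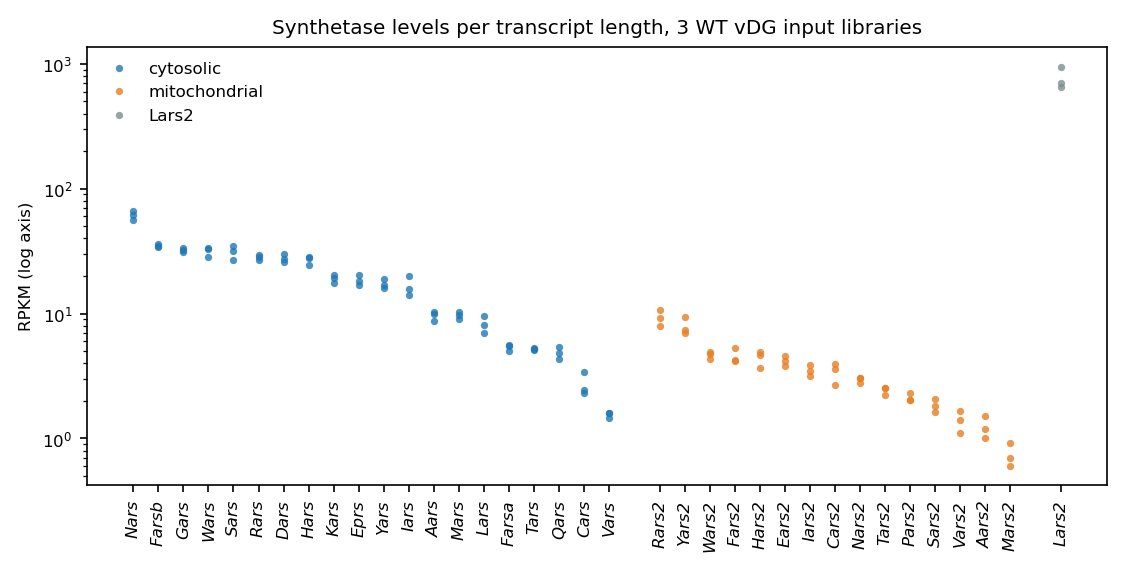
Levels of the 36 synthetase genes in the 3 WT vDG input libraries, in RPKM on a log axis, with 1 point per library and genes ordered by their mean within each set. Cytosolic genes ran from *Nars* down to *Vars* and mitochondrial genes from *Rars2* down to *Mars2*, and *Lars2* stood alone above both sets.

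Loss of 5-HT4R was first compared in the vDG IP, the ribosome-bound mRNA of the tagged cells. *Aars*, the alanyl-tRNA synthetase, was lower in cKO, and no other synthetase gene passed the threshold of an adjusted p under 0.1. Thus 1 of 20 cytosolic genes and 0 of 15 mitochondrial genes were called, where 0.35% of all 14300 genes tested were called lower and 0.0699% higher. Over all 20 cytosolic genes, *Aars* included, 14 had a log2 fold change below 0, with a median of -0.20, and 12 of 15 mitochondrial genes had one above 0, with a median of 0.08. The median over all genes tested was -0.002. At an unadjusted p under 0.05 there were 6 cytosolic genes and 1 mitochondrial gene (11.7% of all genes), and DESeq2 called 3 and 0 (2.47% of all genes). The cytosolic median moved to -0.10 without WT IP 1 and -0.13 without cKO IP 1, and the mitochondrial median to -0.02 without cKO IP 2.

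*Aars* (chr8:111033144-111057664 on GRCm38, plus strand) read 87.4, 71.2 and 74.9 CPM in the WT vDG IPs and 33.7 and 46.8 CPM in the cKO vDG IPs. All cKO libraries lay below all WT libraries. The log2 fold change was -0.92 ± 0.17 (SE; adjusted p = 0.071, edgeR quasi-likelihood test with Benjamini-Hochberg adjustment), a fold of 0.53. The call was lost without the second WT IP (adjusted p = 0.15), without the first cKO IP (0.91) and without the second cKO IP (0.15). Part of the annotated exons of *Aars* (14.3% of their bases) is shared with *Exosc6* on the same strand, and reads there cannot be assigned.

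Other cytosolic genes also did not overlap between genotypes. In the vDG IP, 10 of 20 cytosolic genes had both cKO libraries below all WT libraries, where 18.3% of all genes tested did, and 1 of 20, *Hars*, had both above, where 12% did. Among the 15 mitochondrial genes these counts were 0 and 1. *Lars*, for leucine, was at -0.60 ± 0.16 (adjusted p = 0.18) and *Gars*, for glycine, at -0.52 ± 0.14 (0.19). *Lars* and *Gars* were called by DESeq2, at adjusted p = 0.032 and 0.030. Markers of other cells moved with the genotype in the IP. Of 5 interneuron markers tested, 1, *Gad2*, was called lower, and the summed level of 7 was between 167 and 194 CPM in WT and 114 and 130 CPM in cKO. The 6 astrocyte markers were at a median of -0.63 on the log2 scale, 5 of them below 0, none called by edgeR and 1 by DESeq2, and summed to between 58.4 and 105 CPM in WT and 48.4 and 61.4 CPM in cKO. All 5 mossy cell markers lay below 0 and all 4 immature neuron markers above 0, none of them called. Their part in the synthetase values was not tested.

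The same comparison in whole vDG tissue called 3 cytosolic genes, all lower in cKO. *Aars*, *Eprs* (the fused enzyme for glutamate and proline) and *Lars* passed an adjusted p under 0.05, and 0 of 15 mitochondrial genes did. Of all 15786 genes tested, 2.33% were called lower and 0.108% higher. Of the 20 cytosolic genes, 17 had a log2 fold change below 0, with a median of -0.16, against 6 of 15 mitochondrial genes with a median of 0.02 over that set and of 0.01 over all genes. At an unadjusted p under 0.05 there were 7 cytosolic and 2 mitochondrial genes (14.8% of all genes), and DESeq2 called 4 and 0 (3.83% of all genes).

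*Aars* read 57.5, 59.5 and 49.7 CPM in WT vDG input and 31.1 and 33.6 CPM in cKO vDG input. The groups were far apart, with the highest cKO library well under the lowest WT library. The log2 fold change was -0.79 ± 0.14 (adjusted p = 0.005). It lost its call only without the first or the second cKO input (adjusted p = 0.17 and 0.062) among the 15 alternatives.

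*Eprs* (chr1:185363044-185428360 on GRCm38, plus strand) read 89.8, 100.2 and 83.2 CPM in WT and 62.7 and 67.2 CPM in cKO. Every cKO library was lower than every WT library, by -0.50 ± 0.13 on the log2 scale (adjusted p = 0.045). *Lars* read 38.1, 32.5 and 27.7 CPM in WT and 22.5 and 20.8 CPM in cKO, again without overlap, at -0.61 ± 0.16 (adjusted p = 0.04). *Eprs* and *Lars* lay close to the threshold: *Eprs* kept its call in 7 of 15 alternatives and *Lars* in 8 of 15. *Eprs* was lost without WT input 2 or 3 (adjusted p = 0.091 and 0.061) and *Lars* without WT input 1 or 2 (0.085 and 0.062), and both were lost without either cKO input (0.25 to 0.47). With a trend over transcript length removed they stood at adjusted p = 0.065 and 0.057, while *Aars* stayed called at 0.0049.

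The 3 called genes came from different subgroups of the cytosolic set. *Eprs* and *Lars* belong to the multisynthetase complex and *Aars* does not; 2 of the 8 complex genes and 1 of the 12 other cytosolic genes were called, with medians of -0.18 and -0.15. *Aars* and *Eprs* are on the ATF4-induced list, whose 11 genes had a median of -0.36 with 2 called, against -0.11 with 1 called for the other 9 cytosolic genes. By catalytic class, 2 of 10 class I and 1 of 10 class II cytosolic genes were called, with *Eprs*, which also carries a class II part, counted in class I.

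In vDG input, 9 of 20 cytosolic genes had both cKO libraries below all WT libraries (17.1% of all genes), and 1 of 20 had both above (15.7% of all genes). Among mitochondrial genes these counts were 0 of 15 below and 5 of 15 above. The mitochondrial gene with the largest value was *Pars2*, for proline, at 0.58 ± 0.19 (adjusted p = 0.12). Markers of several cell types moved with this comparison: the summed level of 6 astrocyte markers was between 422 and 523 CPM in WT and 310 and 342 CPM in cKO, with *Aqp4*, *Gja1* and *Slc1a3* called lower by edgeR and 4 called by DESeq2, and that of 5 microglia markers was between 21.1 and 34.4 CPM in WT and 13.8 and 19.7 CPM in cKO, none called by edgeR, 1 by DESeq2 and none at 0. Interneuron markers summed to between 439 and 503 CPM in WT and 373 and 377 CPM in cKO, none of 7 called. The granule cell marker *Dsp* was called lower (-0.94 ± 0.21, adjusted p = 0.016, edgeR). Over the 5 granule cell markers the median was -0.06, with 1 above 0. They summed to between 961 and 1107 CPM in WT and 1013 and 1024 CPM in cKO. The choroid plexus marker *Ttr* was called higher (1.11 ± 0.29, adjusted p = 0.037, edgeR). It read 3.35, 3.03 and 4.87 CPM in WT and 4.72 and 11.5 CPM in cKO, which overlap. The other choroid plexus marker tested, *Kl*, was at -0.09. The part of all these markers in the synthetase values was not tested. In whole tissue, fewer cells of a type and less RNA per cell cannot be told apart.

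**Figure D2:**
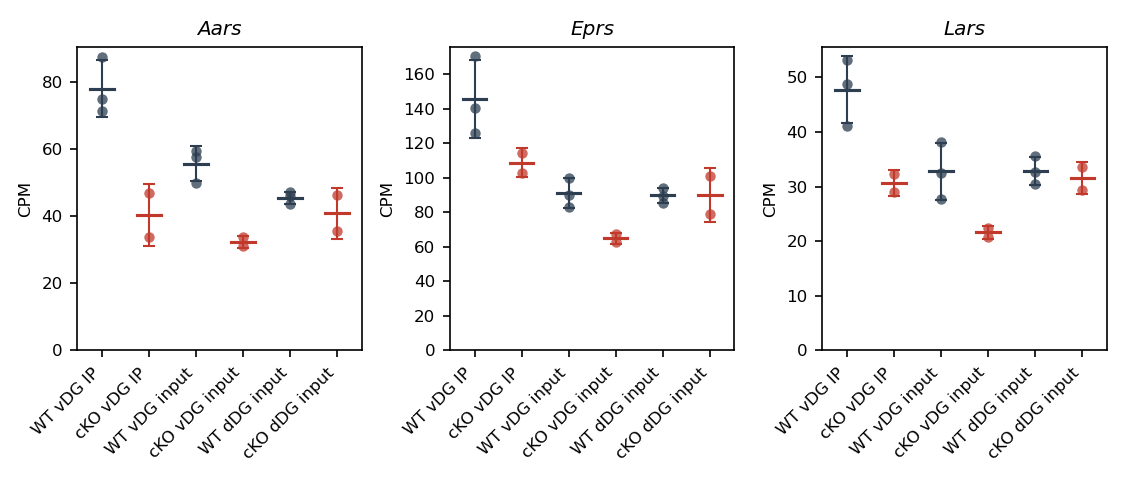
*Aars*, *Eprs* and *Lars* in all 15 libraries, in CPM by group; points are libraries, horizontal lines means and bars the SD (n = 3 for WT, n = 2 for cKO). In the vDG the cKO libraries of each gene lay below the WT libraries in IP and input, while in dDG input the genotypes overlapped.

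In the dDG, where only input was sequenced, no synthetase gene was called between genotypes by edgeR at the settings used throughout, where 0.0325% of all 15383 genes were (0.0065% higher and 0.026% lower). *Aars* read 43.5, 47.1 and 45.8 CPM in WT and 35.4 and 46.2 CPM in cKO, which overlap. *Eprs* was at 0.00 ± 0.12 and *Lars* at -0.06 ± 0.13 on the log2 scale. The cytosolic median was -0.04 and the mitochondrial median 0.09, with a median over all genes of -0.02. Both cKO libraries lay below all WT libraries for 3 of 20 cytosolic and 3 of 15 mitochondrial genes (15.5% of all genes), and above for 2 of 20 and 6 of 15 (13.9%). At an unadjusted p under 0.05 there were 1 cytosolic and 2 mitochondrial genes (12.2% of all genes), and DESeq2 called *Lars2* and none of the other 35 (1.23% of all genes). *Lars2* was also called lower by edgeR under 7 of the other alternatives, given with that gene. With the length trend removed, 11 of all genes were called higher and 15 lower, against 1 and 4. Markers of other cells are given beside these values. The choroid plexus transcript *Ttr* read 4.13, 72.6 and 120 CPM in WT and 4.18 and 1.58 CPM in cKO, at -4.48 ± 0.94 on the log2 scale (unadjusted p = 0.00028, adjusted p = 0.13, edgeR). Of the 6 astrocyte markers 4 lay below 0, at a median of -0.44, with none called by edgeR and 2 by DESeq2, and their sum was between 453 and 484 CPM in WT and 326 and 435 CPM in cKO. All 5 microglial markers lay below 0, at a median of -0.54 and with none called by edgeR or DESeq2, and summed to between 24.0 and 43.7 CPM in WT and 20.8 and 21.4 CPM in cKO. The part of these markers in the synthetase values, those of *Lars2* included, was not tested.

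**Figure D3:**
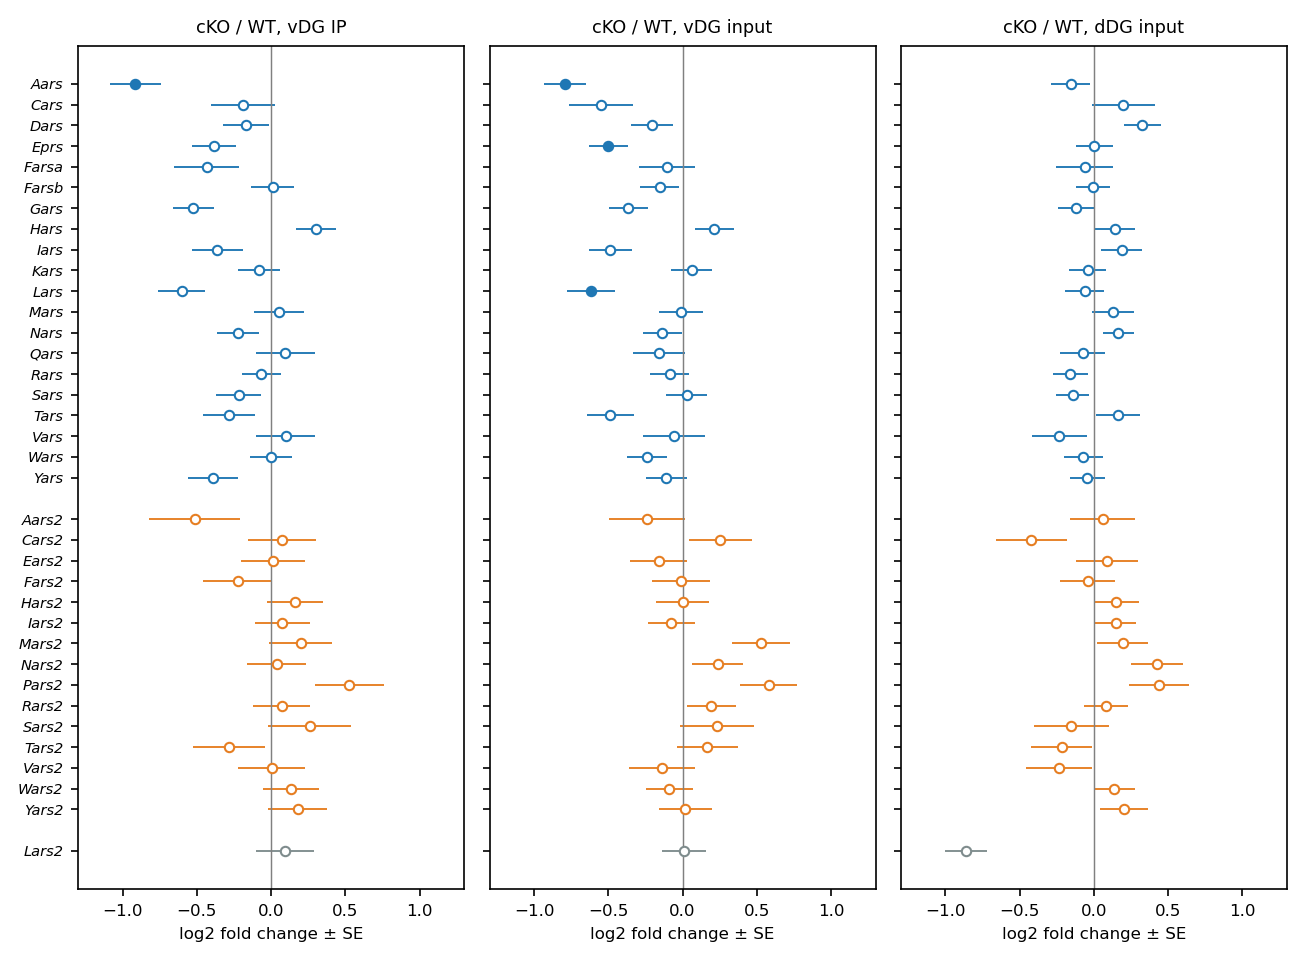
Log2 fold changes of cKO against WT with their SE for all 36 synthetase genes, 1 panel for each fraction and region sequenced; blue marks cytosolic, orange mitochondrial genes and grey *Lars2*, and filled points passed the threshold. Filled points were *Aars* in the vDG IP and *Aars*, *Eprs* and *Lars* in the vDG input, all to the left of 0.

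The genotype effect was then compared between regions and between fractions. No member was called in the interaction of genotype and region over the inputs, where edgeR called 0% of 16306 genes and 2010 had an unadjusted p under 0.05. Of the members, 7 cytosolic and 0 mitochondrial genes had one (12.3% of all genes). The smallest p-values among the 36 belonged to *Lars2* (0.86 ± 0.23, adjusted p = 0.17), *Aars* (-0.65 ± 0.19, 0.19), *Iars* (-0.69 ± 0.21, 0.20) and *Tars* (-0.66 ± 0.20, 0.20). DESeq2 called *Aars* at adjusted p = 0.046 and *Lars2* at 0.028, where it called 1.53% of all genes. Without a count filter edgeR called *Lars2* (0.00015) and 1 cytosolic gene, and 1.58% of all genes. In the interaction of genotype and fraction in the vDG 0% of 16093 genes were called by edgeR, and 497 had an unadjusted p under 0.05. None of the 36 members was among these, the smallest unadjusted p being that of *Tars2* (0.16, edgeR), and DESeq2 called none. *Aars* stood at -0.11 ± 0.22 as the difference between its log2 fold changes in IP and input.

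IP against input compared the ribosome-bound mRNA of tagged cells with that of the tissue. In WT vDG, 7 of 20 cytosolic genes were higher in the IP (*Aars*, *Eprs*, *Gars*, *Kars*, *Lars*, *Vars* and *Wars*) and none lower, and 0 of 15 mitochondrial genes were called in either direction. Of all 15011 genes tested, 7.73% were called higher and 16.1% lower. The cytosolic median was 0.33, the mitochondrial median 0.15 and that of all genes 0.00. Among mitochondrial genes 0 had an unadjusted p under 0.05 (36.1% of all genes), and DESeq2 called none. The mitochondrial median moved to 0.08 without IP 1 or input 2 and to 0.26 without IP 2.

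*Vars* had the largest difference of the called cytosolic genes. It read 11.8, 11.5 and 10.2 CPM in the WT IPs and 5.88, 6.46 and 6.43 CPM in the WT inputs, at 0.78 ± 0.17 (adjusted p = 0.0047). *Eprs* read 126.2, 140.7 and 170.3 CPM in the IPs and 89.8, 100.2 and 83.2 CPM in the inputs, at 0.61 ± 0.13 (0.0036). For both, every IP lay above every input. *Wars*, for tryptophan, read 87.8, 75.1 and 88.7 CPM in the IPs and 51.6, 60.6 and 60.0 CPM in the inputs, at 0.49 ± 0.12 (0.011), also without overlap. Only *Eprs* and *Vars* of the 7 kept their call whichever library was left out. Without IP 1, *Aars*, *Gars*, *Kars* and *Lars* were lost (adjusted p between 0.078 and 0.11), and without IP 3 *Gars* was (0.053). Without input 1, *Aars*, *Gars* and *Wars* were lost (0.057 to 0.088), without input 2 *Gars*, *Kars* and *Lars* (0.084 to 0.12), and without input 3 *Aars*, *Gars*, *Kars* and *Lars* (0.077 to 0.14).

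In cKO vDG, 8 of 20 cytosolic genes and 1 of 15 mitochondrial genes, *Iars2* for isoleucine, were higher in the IP and none lower. Of all 15126 genes, 11.8% were called higher and 15.7% lower. The cytosolic genes were *Eprs*, *Farsb*, *Hars*, *Iars*, *Lars*, *Tars*, *Vars* and *Wars*, with a cytosolic median of 0.30 beside 0.09 for mitochondrial genes and -0.03 for all genes. The mitochondrial median was 0.21 without IP 1, -0.05 without IP 2, 0.06 without input 1 and 0.07 without input 2. *Vars* read 12.7 and 10.7 CPM in the IPs and 5.72 and 6.41 CPM in the inputs, at 0.92 ± 0.22 (adjusted p = 0.0093). *Eprs* was at 0.72 ± 0.11 (0.00059), with 103.1 and 114.6 CPM in the IPs and 62.7 and 67.2 CPM in the inputs. *Wars* was at 0.71 ± 0.12 (0.00089), with 77.4 and 86.2 CPM in the IPs and 50.8 and 47.1 CPM in the inputs, so that the 3 called cytosolic genes with the largest values did not overlap between fractions. Only *Eprs* and *Wars* of the 8 kept their call whichever library was left out. Without IP 1, *Hars* and *Iars* were lost (adjusted p = 0.054 and 0.077), and without IP 2 *Farsb*, *Hars*, *Lars* and *Tars* (0.052 to 0.15). Without input 1, *Hars*, *Iars*, *Lars*, *Tars* and *Vars* were lost (0.074 to 0.12), and without input 2 *Farsb*, *Hars*, *Iars*, *Lars* and *Tars* (0.055 to 0.20). *Iars2* read 25.8 and 24.7 CPM in the IPs and 18.6 and 18.04 CPM in the inputs, at 0.44 ± 0.15 (adjusted p = 0.043). It too was separated between fractions, but its call was lost on leaving out any of the 4 libraries (adjusted p between 0.051 and 0.18). Exons of *Iars2* share 22.9% of their bases with *Rab3gap2* on the opposite strand, and the library kit does not mark strand.

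Every IP lay above every input for 14 of 20 cytosolic and 1 of 15 mitochondrial genes in WT (20.9% of all genes), and for 15 of 20 and 5 of 15 in cKO (32%). Every IP lay below every input for 0 genes of either set in WT (20.7%), and for 1 of 20 and 1 of 15 in cKO (33%). Separation was more frequent over all genes with 2 libraries against 2 than with 3 against 3. Both comparisons gave 0 called lower, where all 6 astrocyte markers and all 5 microglia markers were called lower in the IP of each genotype. Astrocyte markers summed to between 58.4 and 105 CPM in the WT IPs and 422 and 523 CPM in the WT inputs. The 5 granule cell markers summed to between 1195 and 1353 CPM in the WT IPs and 961 and 1107 CPM in the WT inputs, so marker levels moved with the fraction beside the synthetase values, and their part in the result was not tested. With library size alone in place of TMM, the median of all genes moved to -0.13 in WT and -0.20 in cKO, and the cytosolic medians to 0.19 and 0.13, still above it. The calls over all genes then split into 487 higher and 3022 lower in WT, against 1160 and 2422 with TMM, and into 751 and 3230 in cKO, against 1790 and 2377.

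Region was compared in the inputs. In WT, 1 of 20 cytosolic genes, *Tars* for threonine, was higher in vDG than in dDG and none was lower, and 0 of 15 mitochondrial genes were called. Of all 15412 genes, 9.26% were called higher and 6.09% lower. *Tars* read 20.7, 21.1 and 20.3 CPM in WT vDG and 14.6, 15.0 and 17.1 CPM in WT dDG, without overlap, at 0.43 ± 0.13 (adjusted p = 0.041). The call was lost without any 1 of the 3 vDG libraries and without the first or second dDG library, with adjusted p between 0.089 and 0.15. Cytosolic and mitochondrial medians were 0.15 and -0.04, and that of all genes was -0.01; all 11 ATF4-induced genes lay above 0, with a median of 0.28.

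In cKO, 1 of 20 cytosolic genes, *Hars* for histidine, was higher in vDG and 3 were lower: *Dars* for aspartate, *Eprs* and *Lars*, all 3 of them genes of the multisynthetase complex. Of all 15505 genes, 8.56% were called higher and 8.47% lower, and 0 of 15 mitochondrial genes were called. With library size alone the calls over all genes split into 1778 higher and 943 lower, against 1328 and 1314 with TMM. *Lars* read 22.5 and 20.8 CPM in cKO vDG and 29.4 and 33.6 CPM in cKO dDG, at -0.55 ± 0.14 (adjusted p = 0.0081). *Eprs* read 62.7 and 67.2 against 78.8 and 101.0 CPM, at -0.48 ± 0.13 (0.013), and *Dars* 45.9 and 59.1 against 70.5 and 70.3 CPM, at -0.43 ± 0.13 (0.024). *Hars* read 63.2 and 62.1 against 52.5 and 41.7 CPM, at 0.40 ± 0.13 (0.034). In none of the 4 genes did the regions overlap. All of these calls, and that of *Lars2*, were lost without the second cKO dDG library, with adjusted p between 0.071 and 0.42. Without the first cKO vDG library *Dars* (adjusted p = 0.28) and *Hars* (0.10) were also lost, and without the second *Hars* (0.052) and *Lars2* (0.10). Over the 11 ATF4-induced genes the median was -0.04, with 7 below 0. *Hars* and *Hars2* lie head to head and share exonic bases on opposite strands.

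Every vDG library lay above every dDG library for 4 of 20 cytosolic genes in WT (16.2% of all genes) and 5 of 20 in cKO (30.6%), and below for 2 of 20 (15.2%) and 8 of 20 (27.6%). For mitochondrial genes the counts above were 2 and 5 of 15 and below 1 and 4 of 15. The WT and cKO region comparisons use separate libraries, but each shares its vDG libraries with the comparisons of fraction and genotype, so the lower *Eprs* and *Lars* of cKO vDG input enter several of them. Marker lists moved with region too. In WT, 3 of 5 granule cell and 3 of 5 oligodendrocyte markers were called lower in vDG, 3 of 7 interneuron and 2 of 5 mossy cell markers higher, and 3 of 4 CA markers higher and 1 lower. In cKO, 4 of 5 granule cell and 2 of 5 oligodendrocyte markers were called lower, 3 of 7 interneuron and 2 of 5 mossy cell markers higher, and 2 of 4 CA markers higher and 1 lower. *Ttr* read 4.13, 72.6 and 120 CPM in the WT dDG inputs and between 3.03 and 4.87 CPM in the WT vDG inputs. The part of these markers in the synthetase values was not tested.

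**Figure D4:**
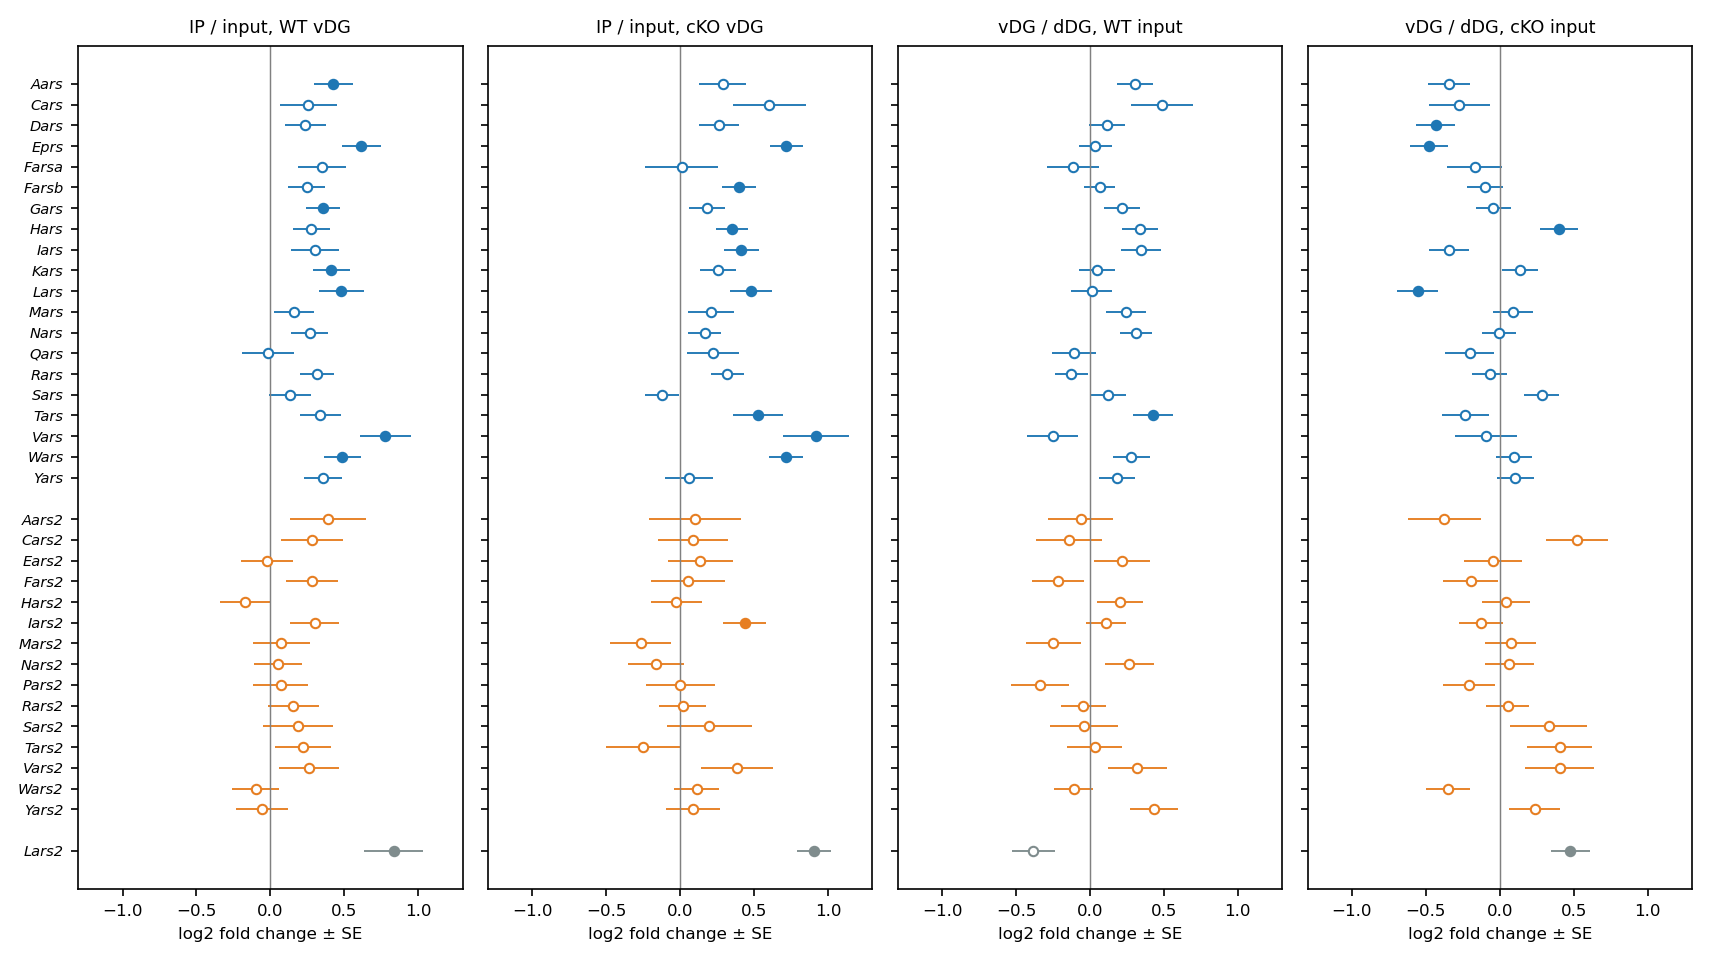
Log2 fold changes with their SE for all 36 synthetase genes, for IP against input and for vDG against dDG in each genotype; blue marks cytosolic, orange mitochondrial genes and grey *Lars2*, and filled points passed the threshold. In the IP comparisons the filled cytosolic points lay to the right of 0, and in the region comparisons filled points were few and lay on both sides.

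*Lars2*, the mitochondrial enzyme for leucine, held between 62.9 and 83.7% of the counts of all 36 synthetase genes in a library. It read 5519, 7163 and 3843 CPM in the WT vDG IPs, 5831 and 5686 in the cKO vDG IPs, 2523, 2723 and 3677 in WT vDG input, 2624 and 3417 in cKO vDG input, 4707, 3666 and 3381 in WT dDG input, and 2391 and 1920 in cKO dDG input. IPs were above inputs in the vDG, without overlap in either genotype, and the 2 cKO dDG inputs were the lowest of all 15 libraries. Its level of 764 ± 158 RPKM (SD, n = 3) in WT vDG input stood far above the 61.2 ± 4.63 RPKM of *Nars*, the next highest member.

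*Lars2* was higher in the IP at 0.83 ± 0.20 in WT (adjusted p = 0.0075) and 0.90 ± 0.12 in cKO (0.00016). Between genotypes it was at 0.10 ± 0.20 in the vDG IP (adjusted p = 0.89), at 0.01 ± 0.15 in vDG input (0.98) and at -0.86 ± 0.14 in dDG input (0.059), where the groups did not overlap. The last value missed the threshold of 0.05 but kept that side of it under 6 of 14 alternatives only. It was called under the other 8, which were DESeq2 (1.4e-05), library size alone (0.027), no count filter (4.1e-14), the replicate block (0.00021), the length trend removed (0.014), leaving out WT dDG input 1 (0.028) or 3 (0.014), and a threshold of 0.1. Without cKO dDG input 2 the adjusted p was 0.96. In cKO it was higher in vDG than in dDG at 0.48 ± 0.13 (0.014), and in WT it was at -0.38 ± 0.14 (0.088). The cKO call was kept in 10 of 13 alternatives, and the highest adjusted p among them was 0.23 (edgeR or DESeq2). The value was 0.34 without cKO dDG input 2 and 0.26 without cKO vDG input 2, and neither fit kept the call. The WT value stayed uncalled under 10 of 15 alternatives and was called lower without a count filter (0.0088), with the length trend removed (0.036), without WT vDG input 3 (0.018) or WT dDG input 3 (0.034), and at a threshold of 0.1. The row of the ribosomal RNA precursor *Rn45s* was set beside it. *Lars2* stood at between 3.85 and 7.16 counts per 100 counts of *Rn45s* over the 15 libraries, and *Rn45s* itself was between 63069 and 115430 CPM in the WT IPs and 36971 and 70187 CPM in the WT vDG inputs. *Rn45s* was called higher in the IP by edgeR at 0.76 ± 0.23 in WT and 0.95 ± 0.13 in cKO, and by DESeq2 in cKO but not in WT. Between genotypes in dDG input it was at -0.58 ± 0.15 (adjusted p = 0.17, edgeR) and was called by DESeq2. The rows ran in the same order within the WT IPs, the WT vDG inputs and the cKO dDG inputs. They did not within the cKO IPs, the cKO vDG inputs and the WT dDG inputs. The cKO vDG input with the lower *Lars2* (2624 CPM) had the higher *Rn45s* (68159 against 47745 CPM). Whether reads of ribosomal RNA enter the *Lars2* row was not tested.

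**Figure D5:**
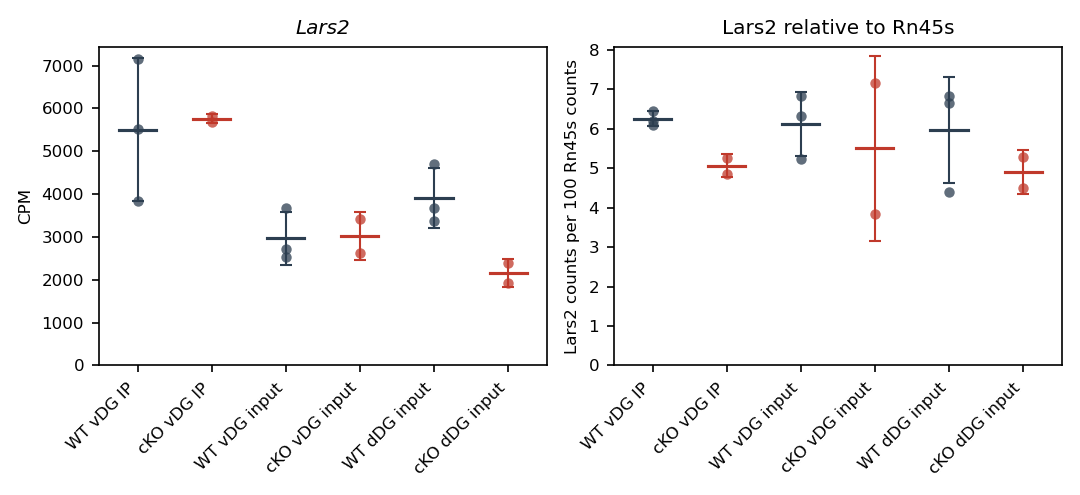
*Lars2* in all 15 libraries, in CPM on the left and as counts per 100 counts of *Rn45s* on the right; points are libraries, lines means and bars the SD (n = 3 for WT, n = 2 for cKO). CPM values spread from 1920 to 7163, and the ratio from 3.85 to 7.16.

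Genes that work with the synthetases were counted from lists. Of 11 tested partner genes of the synthetases, which include the scaffold proteins of the complex and enzymes that correct or modify charged tRNA, 0 were called in any genotype comparison by edgeR or DESeq2, and 1, 1 and 0 had an unadjusted p under 0.05 in the vDG IP, in vDG and in dDG input (11.7%, 14.8% and 12.2% of all genes; those called in either direction made up 0.42% in the vDG IP and 2.44% in vDG input). The median of these partner genes was 0.16 in the vDG IP, 0.22 in vDG input and 0.05 in dDG input. Of the 11, 9, 10 and 6 lay above 0 in that order. Medians over all genes were -0.002, 0.01 and -0.02. *Gatc*, a subunit of the mitochondrial enzyme that makes glutaminyl-tRNA, had the smallest p of the partner genes, at 0.33 ± 0.14 in the vDG IP (adjusted p = 0.38, edgeR). Of 9 genes that deliver charged tRNA to the ribosome, edgeR called 0, with 1, 1 and 3 at an unadjusted p under 0.05 in that order, against the same shares of all genes. *Gfm1*, a mitochondrial elongation factor, came nearest at -0.58 ± 0.16 in vDG input (adjusted p = 0.058, edgeR), and it was the 1 gene that DESeq2 called in each vDG comparison.

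The amino acid response, through the kinase GCN2 and ATF4, is the pathway best known for raising synthetase transcripts. Of its 24 genes tested in the vDG IP and 26 in each input, other than the synthetases, 0 were called between genotypes by edgeR, with 4, 7 and 4 at an unadjusted p under 0.05 in that order (11.7%, 14.8% and 12.2% of all genes), and DESeq2 called 0, 0 and 1. The list median was -0.15 in the vDG IP, -0.09 in vDG input and -0.07 in dDG input, with 19 of 24, 16 of 26 and 18 of 26 genes below 0. *Atf5*, a related transcription factor, had the smallest p, at -0.81 ± 0.18 in dDG input (adjusted p = 0.16), and was the gene called by DESeq2. *Atf4* itself was at 0.17 ± 0.15 in the vDG IP and 0.10 ± 0.14 in vDG input, and *Asns*, asparagine synthetase, at -0.19 ± 0.15 and -0.09 ± 0.13. *Atf4* and *Asns* were picked with their values already known.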

How the data were processed

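RNA of vDG TRAP IPs and of vDG and dDG inputs was amplified with Ovation V2 and made into libraries with TruSeq v2, a kit without strand marking. The authors deposited raw counts per gene symbol for 15 libraries, and the submitters' processing notes name FastQC 0.11.4, STAR 2.4.2a on mm10, SAMtools 0.1.19-444 and HTSeq; by the study's methods duplicate reads were removed and HTSeq ran in union mode. Removing duplicates compresses the counts of very abundant rows such as *Lars2* and *Rn45s*. The 5 deposited comparison tables, with normalized values in 25 sample columns, fold changes and p-values from DESeq2 1.4.5, were not used. Rows naming no gene held 24.7 to 37.8% of counts and were left out of library sizes and tests. *Rn45s* held 3.70 to 10.8% of the counts on genes.

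Libraries were grouped by their labels. Each comparison was fitted on its own groups over all genes that passed filterByExpr, with TMM normalization and the quasi-likelihood test of edgeR 4.0.16 (R 4.3.3), and p-values were adjusted by the Benjamini-Hochberg method over all genes tested. A gene was called at an adjusted p under 0.1 for genotype in the vDG IP and under 0.05 elsewhere. The thresholds for genotype and for IP against input were those of the study, without its fold limits for IP against input. The study gave no threshold for region or for the interactions. The 2 interactions of genotype, with fraction and with region, were each fitted on 4 groups. CPM used TMM library sizes, and RPKM used, from the GENCODE M21 annotation of GRCm38, the transcript with the longest coding sequence of each gene. The scripts were tested on simulated counts.

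All 36 synthetase genes could be named, with values per library for those called between genotypes, for the 3 called genes with the largest change in each direction of the other comparisons, for the highest and lowest of each set and for *Lars2*. From each other list, genes called between genotypes were named or, with none called, the gene with the smallest p. One gene of the partner list is not reported here. The members and lists were chosen with earlier results of these data known. Nothing in the labels states that pools were independent, so p-values measure the spread between pools. Depth between 19039295 and 30451430 counts gave the lowest member 68 counts. Alternatives were DESeq2 1.42.0, its size factors, library size alone, other count filters, other thresholds, all groups in one fit, a replicate block, leaving out each library, leaving out *Lars2* and ribosomal RNA rows and, chosen after seeing the data, removal of a length trend by loess and the union of exons for levels.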

Additional observations from a re-analysis of the deposited data

How the results depend on the processing

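Genotype in the vDG IP called 3 cytosolic genes with DESeq2 (2.47% of all genes) and without a count filter (1.88%). All groups in one fit also gave 3 (2.85%) and the length trend removed gave 2 (1.29%). A threshold of 0.05 gave 0, and 0 over all genes. In vDG input the 3 cytosolic calls became 1 with library size alone (1.91% of all genes). They also became 1 with all groups in one fit (0.849%) or the length trend removed (2.65%). IP against input in WT called 3 cytosolic genes with library size alone or with 10 counts in every library and 13 with all groups in one fit (23.4, 18.3 and 32.1% of all genes), and library size alone gave a cytosolic median of 0.19 and a mitochondrial median of 0.021. In cKO, library size alone gave 3 cytosolic calls (26.3% of all genes) and a median of 0.13. The 1 mitochondrial call became 0 with DESeq2 (25.9%), library size alone, 10 counts in every library (25.4%) or the length trend removed (27.0%). vDG against dDG in WT called 2 cytosolic genes with DESeq2 (16.8% of all genes) or library size alone (15.4%). It called 3 with the length trend removed (18.8%) and 3 at a threshold of 0.1, where 1813 of 15412 genes were higher and 1287 lower. At that threshold 1 mitochondrial gene was called in each genotype. In cKO all groups in one fit gave 2 cytosolic calls (8.25% of all genes) and library size alone a median of -0.024. In the interaction of genotype and region DESeq2 called 1 cytosolic gene (1.53% of all genes), as did the fit without a count filter (1.58%). The cytosolic median level in WT vDG input moved from 18.1 to 19.1 RPKM with library size alone and to 9.07 RPKM with the union of exons, which gave 1.67 RPKM for the mitochondrial genes. The cause of these changes was not tested.

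Replicate numbers in the titles were not taken to pair the samples. Input RNA came from homogenate before the IP, but no source used here ties an IP to the input of the same number, and the records give pools of different size. Deviations of same-numbered libraries correlated between -0.33 and 0.46, and no comparison with 3 pairs was over 0.1 throughout. The 2 cKO pairs of IP and input both gave 0.44. With 2 libraries per group the deviations mirror each other, so these pairs hold 1 value. The cKO dDG files number their libraries differently from the titles, and by those numbers the correlations with WT dDG would be 0.17 and 0.04 in place of -0.09 and -0.17, and the cKO regions would share 1 number; the block was run with the numbers of the titles. With a replicate block, cytosolic calls were 1 in the vDG IP, 3 in vDG input and 0 in dDG input between genotypes, 6 in WT and 11 in cKO between fractions (22.1 and 37.8% of all genes), and 4 in WT and 7 in cKO between regions (19.1 and 24.9% of all genes). *Lars2* in the vDG IP turned to -0.10 under the block; neither value was called.

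Leaving out 1 library at a time, cytosolic calls ranged from 0 to 1 in the vDG IP, 0 to 3 in vDG input, 3 to 7 and 3 to 9 between fractions in WT and cKO, and 0 to 1 and 0 to 6 between regions, and mitochondrial calls fell to 0 between fractions in cKO and ranged from 0 to 1 between regions in cKO. The cytosolic median ranged from -0.25 to -0.14 in vDG input, from -0.039 to 0.018 in dDG input and from -0.28 to -0.10 in the vDG IP. The mitochondrial median ranged from -0.02 to 0.09 in the vDG IP and from 0.04 to 0.12 in vDG input. It ranged from -0.05 to 0.21 between fractions in cKO, from -0.06 to 0.05 between regions in WT, and from -0.13 to 0.11 in the region interaction. *Lars2* changed sign without a call, from -0.12 to 0.34 in the vDG IP, from -0.20 to 0.20 in vDG input and from -0.16 to 0.35 in the fraction interaction. Single genes were followed under all alternatives if called at the main settings, with *Lars2* followed in every comparison. Of their values, 434 kept their direction and side of the threshold, 108 lost and 15 gained a call, and 8 changed sign. Only *Lars2* was followed without a call, so only *Lars2* could gain 1 in these counts. It did so 8 times between genotypes in dDG input, 5 between regions in WT and 2 in the region interaction. Calls gained by other members, as with DESeq2, are not in these counts. Over all genes, with each threshold kept, the share called ranged under the other alternatives from 0 to 2.85% in the vDG IP. It ranged from 0.0367 to 4.11% in vDG input and from 0 to 1.74% in dDG input. Between fractions it ranged from 16.0 to 32.1% in WT and 14.4 to 37.8% in cKO. Between regions it ranged from 10.5 to 19.1% in WT and 8.25 to 24.9% in cKO. A threshold of 0.1 gave 52 genes higher and 635 lower in vDG input, and 1813 and 1287 between regions in WT. Levels were lower in the mitochondrial set, where counting error is larger.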

Other observations

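Genes that splice tRNA or mend its ends held calls between genotypes, unlike the other lists of genes that work with the synthetases by edgeR. Of 12 tested in each genotype comparison, 1 was called lower in the vDG IP (0.35% of all genes) and 2 in vDG input (2.33% of all genes), with list medians of 0.003 and 0.17. *Rtcb*, the ligase that joins tRNA pieces after intron removal, read 52.8, 40.9 and 31.5 CPM in the WT vDG IPs and 18.3 and 22.4 CPM in the cKO vDG IPs, at -1.005 ± 0.21 (adjusted p = 0.086, edgeR). In vDG input it read 41.0, 33.2 and 34.6 CPM in WT and 18.97 and 24.1 CPM in cKO, at -0.77 ± 0.16 (0.010). Genotypes did not overlap in either. The call was kept in 11 of 15 alternatives in the IP and in 12 of 15 in vDG input. Among the losses in the IP were leaving out WT IP 2 (adjusted p = 0.22, edgeR), cKO IP 1 (log2 -0.88) or cKO IP 2 (-1.16). Among those in vDG input were leaving out cKO input 1 (-0.60) or 2 (-0.96). In dDG input *Rtcb* was at -0.52 ± 0.15 (adjusted p = 0.19), with 41.8, 41.3 and 34.9 CPM in WT and 23.4 and 31.7 CPM in cKO.

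*Ddx1*, a helicase of the same ligase complex, read 114, 96.3 and 103 CPM in WT vDG input and 67.2 and 75.9 CPM in cKO vDG input, without overlap, at -0.56 ± 0.13 (adjusted p = 0.026, edgeR). Its call was kept in 11 of 15 alternatives. Among the losses were leaving out WT input 3 (adjusted p = 0.066, edgeR), cKO input 1 (log2 -0.47) or cKO input 2 (-0.65). *Ddx1* was at -0.56 in the vDG IP (adjusted p = 0.21) and at 0.02 in dDG input. Across the fractions *Gfm1*, the mitochondrial elongation factor, was higher in the IP at 0.62 ± 0.15 in WT (adjusted p = 0.0078) and 0.63 ± 0.15 in cKO (0.0076). It was named here after its values were seen. Of the 9 delivery genes tested, 2 were called higher in the IP and 1, *Eef1g*, lower in each genotype, with list medians of -0.03 and -0.07.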
